A study of Mus musculus with 4 samples.

Results

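Transcripts of 10 genes of the interleukin-1 (IL-1) and interleukin-18 (IL-18) systems were followed in human leukocytes from breast carcinoma xenografts. The genes were IL1A, IL1B, IL1RN, IL1R1, IL1R2, IL1RAP, IL18, IL18R1, NLRP3 and CASP1, all found by symbol among the 36601 genes of the count tables. The mice were of the MISTRG strain, which carries human genes for myeloid growth factors, and were engrafted as newborns with human fetal liver CD34+ cells after irradiation. Tumors were grown from MDA-MB-231, an established human breast carcinoma line, in the mammary fat pad. Of 14 mice, 7 were left untreated and 7 received maraviroc, a small-molecule drug, in the water they drank. It was dosed at 300 mg/l, began 21 days after tumor injection and lasted 10 days, and the tumors were collected on day 31. All mice shared the strain, the graft type and the tumor line, and stromal and vascular cells of the tumors were those of the mouse host. Live human CD45+ cells were marked with a hashtag antibody per mouse and captured in 2 droplet reactions of 3′ RNA-seq. Reaction 1 held 4 untreated and 3 maraviroc mice, and reaction 2 held 3 untreated and 4 maraviroc mice.

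IL-1α and IL-1β, the products of IL1A and IL1B, act on the receptor IL1R1 together with the accessory chain IL1RAP and start MyD88 signaling. IL1RN encodes the receptor antagonist, which binds the same receptor without a signal, and IL1R2 encodes a decoy receptor that lacks the signaling domain. IL-18 acts on IL18R1 with IL18RAP, mainly in T cells, NK cells and other innate lymphocytes. IL-1β and IL-18 are made as precursors that caspase-1 (CASP1) cleaves, often after assembly of an inflammasome on the sensor NLRP3, so that transcript levels do not show how much active cytokine was released.

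The 2 reactions held 133089612 and 175447534 unique molecular identifiers (UMIs), the tags that count single captured transcripts. Between 758 and 3030 cells were assigned to each mouse, 19817 in all, and 136 barcodes occurred in both reactions. Reaction 1 was shallower, with a median of 4658 UMIs per cell placed in a class against 10154 in reaction 2, and 45.9% of its cells met no class rule against 14.9%. More barcodes were also left out there. Of 27645 barcodes, 10174 were called doublets by their hashtags and 5554 had no hashtag call. In reaction 2 these were 2142 and 119 of 10161. Untreated replicates 2 and 7 had only 6 and 7 T cells and entered no test on T cells. Classes were set by UMIs of marker genes, none of them a gene described here, and their names are shorthand for those markers. Monocytes carried S100A12, FCN1, VCAN and S100A8, type 2 dendritic cells (cDC2) carried CD1C, FCER1A, CD1E and CLEC10A, and regulatory T cells carried FOXP3, CCR8, RTKN2 and IL2RA. Other T cells were CD8 T with a CD8A or CD8B UMI and CD8-negative without. CD8-negative, CD8 and regulatory T cells had medians of 3627.5, 6597 and 7617 UMIs in reaction 1. In reaction 2 these were 6466.5, 6412.5 and 7074.5. Whether shallow CD8 or regulatory T cells fell into the CD8-negative class was not tested. Macrophages were split by C1Q genes, CXCL10 and related chemokines, CCL20 and related chemokines, MT1G, GLUT1 (SLC2A1) with hypoxia genes, and LYVE1. Myeloid cells that met no rule for a myeloid state, 1634 in all, formed a class called other myeloid. It entered the sums of all myeloid cells and the fit of myeloid against T cell classes. It was left out of the order of neighboring classes and was not drawn as a class in the figures. Myeloid transcripts in T cells, which should lack them, stood at a median of 2.9% of the myeloid level in reaction 1 and 1.99% in reaction 2.

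**Figure D1:**
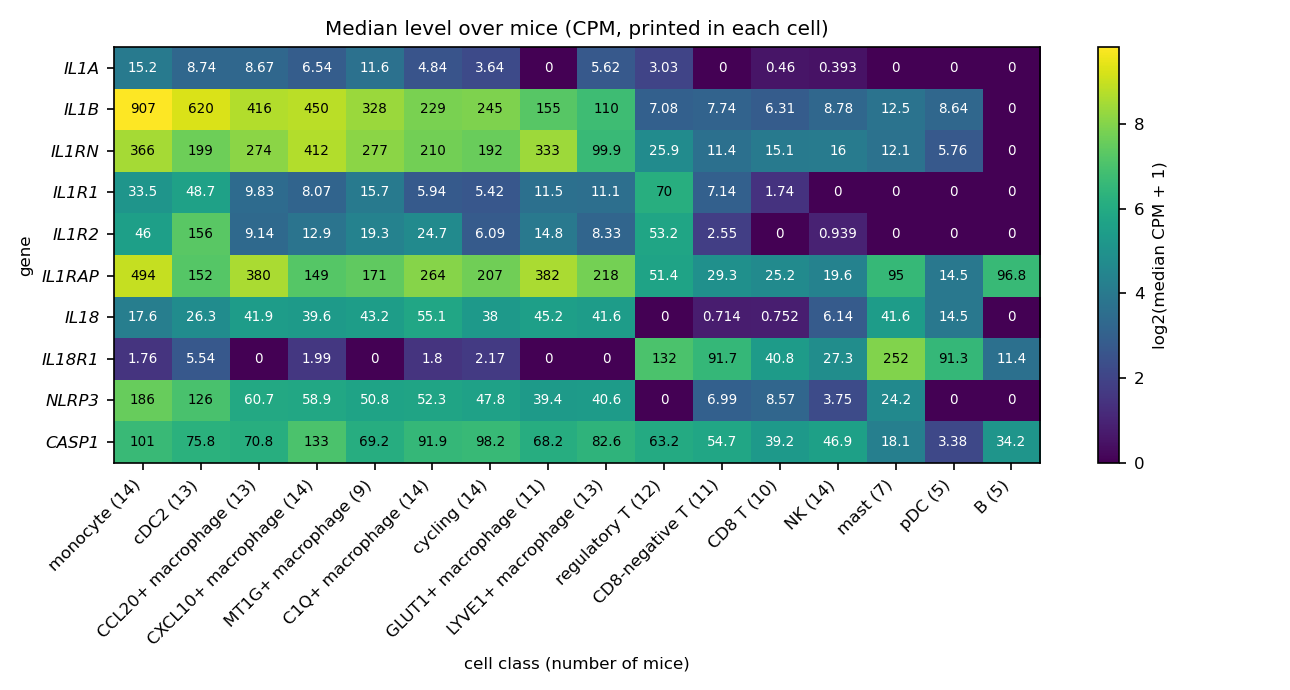
Median level of each gene (rows) over the mice with at least 10 cells of a class (columns, number of mice in brackets), in CPM (UMIs of the gene per 1e6 UMIs of the class in that mouse), with color on a log2 scale. IL1B peaked at 907 CPM in monocytes and IL18R1 at 252 CPM in mast cells, while IL1R2 stood at 156 CPM in cDC2.

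The levels differed widely between classes. Counts were summed per mouse and class, and classes were compared with edgeR's quasi-likelihood test with the mouse as a block, over 11085 genes with Benjamini-Hochberg adjustment. All 10 genes passed the filter on low counts in this fit. Against C1Q+ macrophages, monocytes had 7 genes higher and 1 lower at an adjusted p under 0.05, where 24.3% of all genes were higher and 28.5% lower. The median log2 fold change of the 10 was 1.09, beside -0.06 over all genes. cDC2 had 5 higher and 3 lower, against 20.1% and 24.1% of all genes. CXCL10+ macrophages had 3 higher and 1 lower, against 7.70% and 6.53%, and CCL20+ macrophages had 3 higher and 0 lower, against 5.05% and 3.23%. GLUT1+ macrophages had 2 higher and 0 lower, against 14.5% and 16.7%. LYVE1+ macrophages had 0 higher and 2 lower, against 6.75% and 6.80%, and MT1G+ macrophages 0 higher and 1 lower, against 3.55% and 5.95%. The myeloid classes against the T cell classes, fitted as separate classes and not as summed cells, had 9 higher and 1 lower. Of all genes, 39.4% were higher and 43.0% lower. IL1R1 was among the higher (log2 fold change 0.63), but not when all cells of each lineage were summed. It then stood at 19.28 CPM in myeloid against 19.98 in T cells in reaction 1, and at 23.36 against 42.02 in reaction 2. Log2 fold changes of the genes not called ran from -1.08 to 0.50 in CCL20+, from -0.23 to 0.95 in CXCL10+, from -1.33 to 0.86 in GLUT1+, from -1.14 to 0.77 in LYVE1+ and from -0.56 to 1.01 in MT1G+ macrophages. In monocytes they were 0.18 for both CASP1 and IL18R1, and in cDC2 0.59 for IL1A and 0.06 for IL1RN. cDC1 and mature dendritic cells could not be tested, since 2 and 0 mice had 10 such cells.

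IL1B, the main secreted IL-1 of myeloid cells, was a myeloid transcript here. In monocytes it lay between 479 and 1711 CPM over 14 mice, with a median of 907. In cDC2 it ranged from 235 to 1699 CPM (median 620, 13 mice), in CXCL10+ macrophages from 128 to 1852 (median 450), in CCL20+ macrophages from 162 to 2322 (median 416) and in MT1G+ macrophages from 75.1 to 622 (median 328). The lower end was formed by C1Q+ (median 229), GLUT1+ (155) and LYVE1+ macrophages (110), and even there the highest mouse reached 603 CPM or more. Monocytes exceeded cDC2 in 11 of 13 mice, by 0.58 ± 0.63 on the log2 scale (SD; exact sign-flip permutation test, two-sided, adjusted p = 0.035 over 40 such neighbor pairs). The pairs were themselves picked by the medians over these mice. cDC2 exceeded CXCL10+ macrophages in 10 of 13 mice, by 0.57 ± 0.75, but the difference missed the threshold (adjusted p = 0.061, exact test). CXCL10+ and CCL20+ macrophages were not called different (adjusted p = 0.57, exact test). In T cells the median was 9.22 CPM and in NK cells 8.78 CPM, and the T cell sums of each reaction, 10.9 and 11.8 CPM, were 1.74% and 2.29% of the myeloid level, within the range of the other myeloid transcripts there.

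In the fit, IL1B was 3.88-fold higher in monocytes than in C1Q+ macrophages (log2 fold change 1.96, SE 0.23, adjusted p = 1.1e-13, edgeR). It was higher in cDC2 (1.48, SE 0.24), in CCL20+ macrophages (1.16, SE 0.24) and in CXCL10+ macrophages (0.89, SE 0.23), and lower in LYVE1+ macrophages (-1.06, SE 0.27). The CCL20+ difference was 1.06 and not called in reaction 2 alone, and those of CXCL10+ and LYVE1+ macrophages, 0.80 and -0.97, were not called in reaction 1 alone. Monocytes made up 11.8% of the cells placed in a class in reaction 1 and 14.96% in reaction 2. They held 30.3% and 43.9% of the IL1B UMIs of all cells placed in a class. The share of monocytes with an IL1B UMI was 71.6% and 77.5%, and 58.3% and 51.5% after each cell was thinned to 2000 UMIs, which left 649 of 761 and 1005 of 1005 cells. The corresponding thinned shares in NK cells, taken as a background, were 3.40% and 1.42%, at median depths of 4785 and 7948 UMIs against 5142 and 11340 in monocytes.

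IL1A, which encodes the other IL-1 agonist, was rare. Its median was 15.2 CPM in monocytes, 11.6 in MT1G+ macrophages and 8.67 in CCL20+ macrophages, and in all of the macrophage classes named here at least 1 mouse had no UMI. Single mice reached 139 CPM in CXCL10+ and 127 CPM in CCL20+ macrophages. Monocytes exceeded MT1G+ macrophages in 9 of 9 mice (adjusted p = 0.026, exact sign-flip permutation test), and the neighbors below were not called different. Other myeloid cells, left out of this order, had a median of 12.2 CPM. IL1A was called higher in CCL20+ macrophages (log2 fold change 1.64, SE 0.39) and in monocytes (1.57, SE 0.32) than in C1Q+ macrophages. In reaction 1 alone these were 1.17 and 0.49, and neither was called.

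IL1RN, the antagonist, had a different order from IL1B. It lay between 216 and 942 CPM in CXCL10+ macrophages (median 412), between 201 and 590 in monocytes (366) and between 131 and 591 in GLUT1+ macrophages (333). MT1G+ (277) and CCL20+ macrophages (274) followed, C1Q+ macrophages ranged from 150 to 289 (median 210), cDC2 had a median of 199, and LYVE1+ macrophages were lowest at 28.7 to 202 (median 99.9). None of the first 4 neighboring pairs in this order was called different (adjusted p from 0.16 to 0.88, exact sign-flip permutation test). Against C1Q+ macrophages, IL1RN was higher in CXCL10+ macrophages (log2 fold change 1.15, SE 0.16), monocytes (0.89, SE 0.15) and GLUT1+ macrophages (0.83, SE 0.18), and lower in LYVE1+ macrophages (-1.10, SE 0.19). In cDC2 the difference was 0.06 (SE 0.17) and not called.

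**Figure D2:**
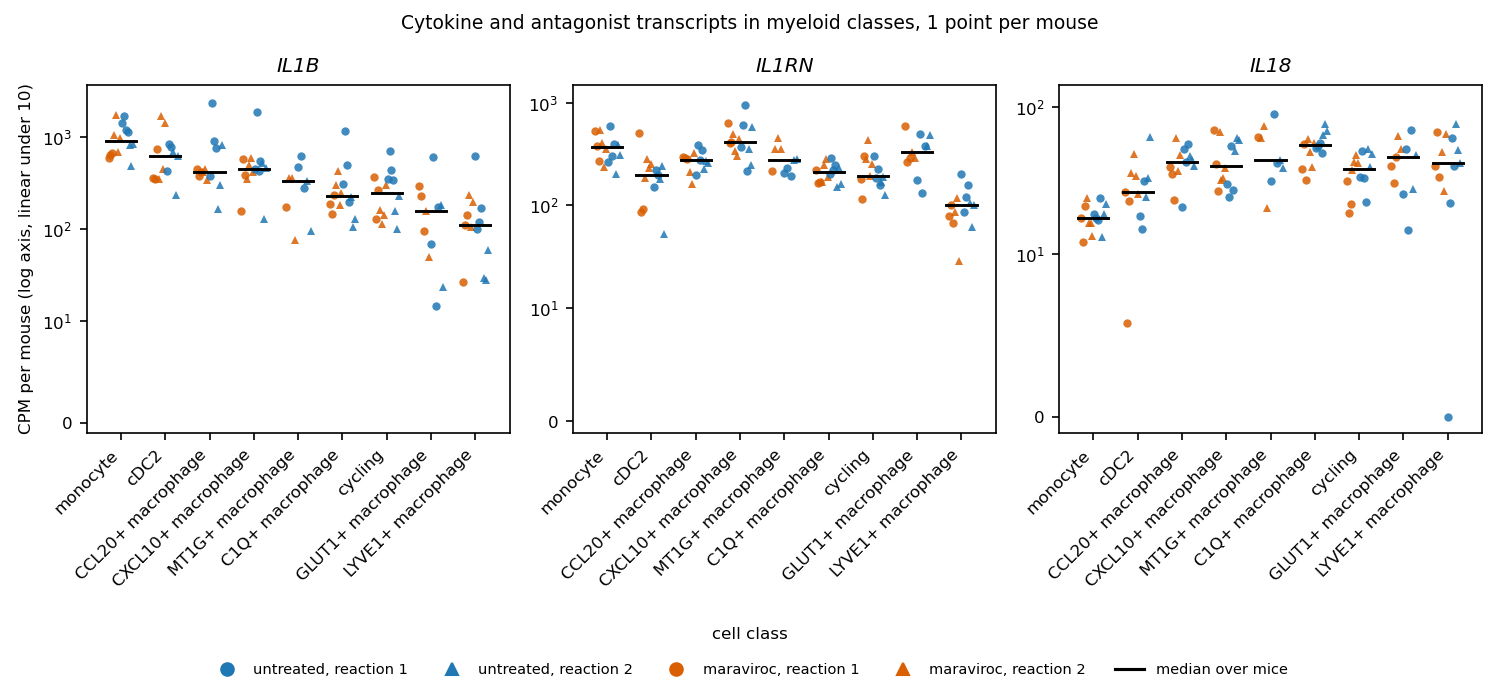
Levels of IL1B, IL1RN and IL18 in the myeloid classes, 1 point per mouse in CPM on an axis that is linear under 10 and logarithmic above, with bars for medians, color for treatment and marker shape for reaction. Medians of IL1B ran from 907 CPM in monocytes to 110 in LYVE1+ macrophages, IL1RN was highest in CXCL10+ macrophages at 412, and IL18 was lowest in monocytes at 17.6.

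Agonist and antagonist were therefore also read as a ratio within each mouse and class, which does not depend on the depth of that mouse. Each transcript gives 1 UMI at its 3′ end whatever its length, but the capture of the 2 transcripts was not calibrated. A ratio of 1 is therefore no sign of equal amounts, and 1 serves only as a common mark for setting classes and mice side by side. The ratios were not tested between classes. A mouse counted only with at least 3 UMIs of each gene, which left 10 of the 11 mice with GLUT1+ macrophages. In monocytes the ratio of IL1RN to IL1B UMIs was 0.183 to 0.904 (median 0.361) and below 1 in all 14 mice. In cDC2 it was 0.0853 to 1.41 (median 0.265). In C1Q+ macrophages the median was 0.746, with 6 of 14 mice above 1. CXCL10+ macrophages, with a median of 0.949, had 7 of 14 mice above 1. The GLUT1+ macrophages, which carried hypoxia genes, had a median ratio of 2.17, with 9 of 10 mice above 1 and a highest value of 20.8. In that class IL1B was not called different from C1Q+ macrophages (log2 fold change -0.71, SE 0.31, adjusted p = 0.065, edgeR), while IL1RN was called higher.

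**Figure D3:**
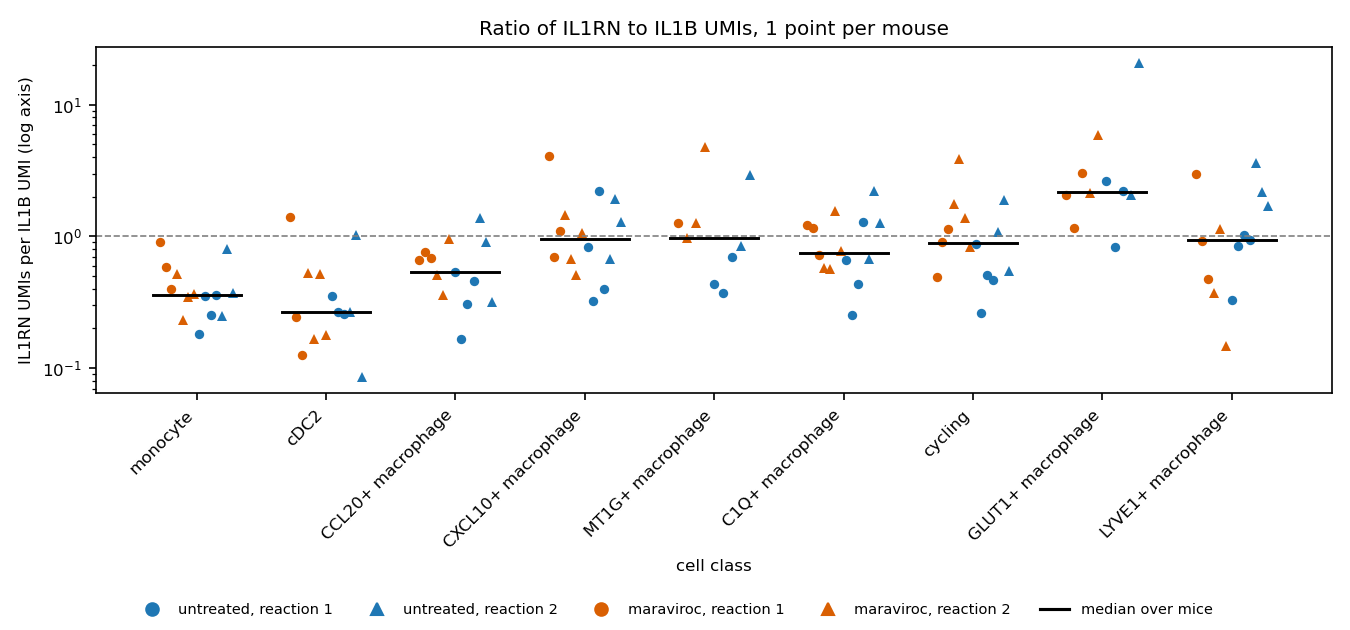
Ratio of IL1RN to IL1B UMIs in each mouse and myeloid class, on a log axis, with bars for medians and a dashed line at 1. The line is a common mark and no sign of equal amounts. All 14 monocyte points lie below the line, and 9 of 10 points of GLUT1+ macrophages lie above it.

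IL1R1, the signaling receptor, had its highest median in regulatory T cells, where it lay between 0 and 152 CPM with a median of 70.0 over 12 mice. It was 17.9 to 74.1 CPM in cDC2 (median 48.7) and 15.1 to 53.9 CPM in monocytes (median 33.5). Regulatory T cells and cDC2 were not called different over 12 mice (adjusted p = 0.53, exact sign-flip permutation test), nor were cDC2 and monocytes (adjusted p = 0.15, exact test). Monocytes exceeded the next class, MT1G+ macrophages, in 9 of 9 mice (adjusted p = 0.026, exact test). C1Q+ macrophages had a median of 5.94 CPM, CD8-negative T cells 7.14, CD8 T cells 1.74 and NK cells 0. The differences of monocytes (log2 fold change 2.25, SE 0.20) and cDC2 (2.64, SE 0.23) from C1Q+ macrophages were called.

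IL1R2, the decoy, was highest in cDC2, at 17.5 to 205 CPM (median 156). Regulatory T cells ranged from 10.3 to 140 CPM (median 53.2) and monocytes from 12.6 to 104 (median 46.0). cDC2 exceeded regulatory T cells in 9 of 12 mice, but the difference missed the threshold (adjusted p = 0.062, exact sign-flip permutation test). Regulatory T cells and monocytes were not called different (adjusted p = 0.65, exact test). Against C1Q+ macrophages, with a median of 24.7 CPM, IL1R2 was 6.86-fold higher in cDC2 (log2 fold change 2.78, SE 0.27, adjusted p = 2.4e-18, edgeR) and 2.14-fold higher in monocytes, the latter not called in reaction 1 alone. cDC2 were 2.37% and 3.88% of the cells placed in a class in the 2 reactions. They held 19.97% and 24.1% of the IL1R2 UMIs of all cells placed in a class. Their median depths were 9870 and 14082 UMIs, against 4658 and 10154 over all cells placed in a class. The part of depth in these shares was not tested. Within cDC2 the ratio of IL1R2 to IL1R1 UMIs was above 1 in 11 of 11 mice with enough UMIs (1.33 to 6.40, median 3.20), whereas in regulatory T cells it was above 1 in 1 of 11 mice (median 0.83). Here too 1 is only a common mark, and the classes were not tested against each other.

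IL1RAP, the accessory chain that IL1R1 and the IL-33 receptor share, was found in each myeloid class that could be tested. Monocytes ranged from 293 to 791 CPM (median 494), GLUT1+ macrophages from 110 to 877 (382), CCL20+ macrophages from 225 to 608 (380) and C1Q+ macrophages from 158 to 379 (264). Monocytes exceeded GLUT1+ macrophages in 8 of 11 mice, without passing the test (adjusted p = 0.14, exact sign-flip permutation test), and CCL20+ exceeded C1Q+ macrophages in 12 of 13 mice (adjusted p = 0.026, exact test). Against C1Q+ macrophages it was called higher in monocytes (log2 fold change 1.09, SE 0.14), CCL20+ (0.67, SE 0.15) and GLUT1+ macrophages (0.60, SE 0.16). It was called lower in CXCL10+ macrophages (-0.70, SE 0.15), cDC2 (-0.62, SE 0.16) and MT1G+ macrophages (-0.58, SE 0.19). The CCL20+ and GLUT1+ calls were lost in reaction 1 alone, and the MT1G+ call was lost in each reaction alone. B cells, in the 5 mice that had enough, stood at 28.9 to 118 CPM (median 96.8), while T and NK cells had medians of 40.8 and 19.6.

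**Figure D4:**
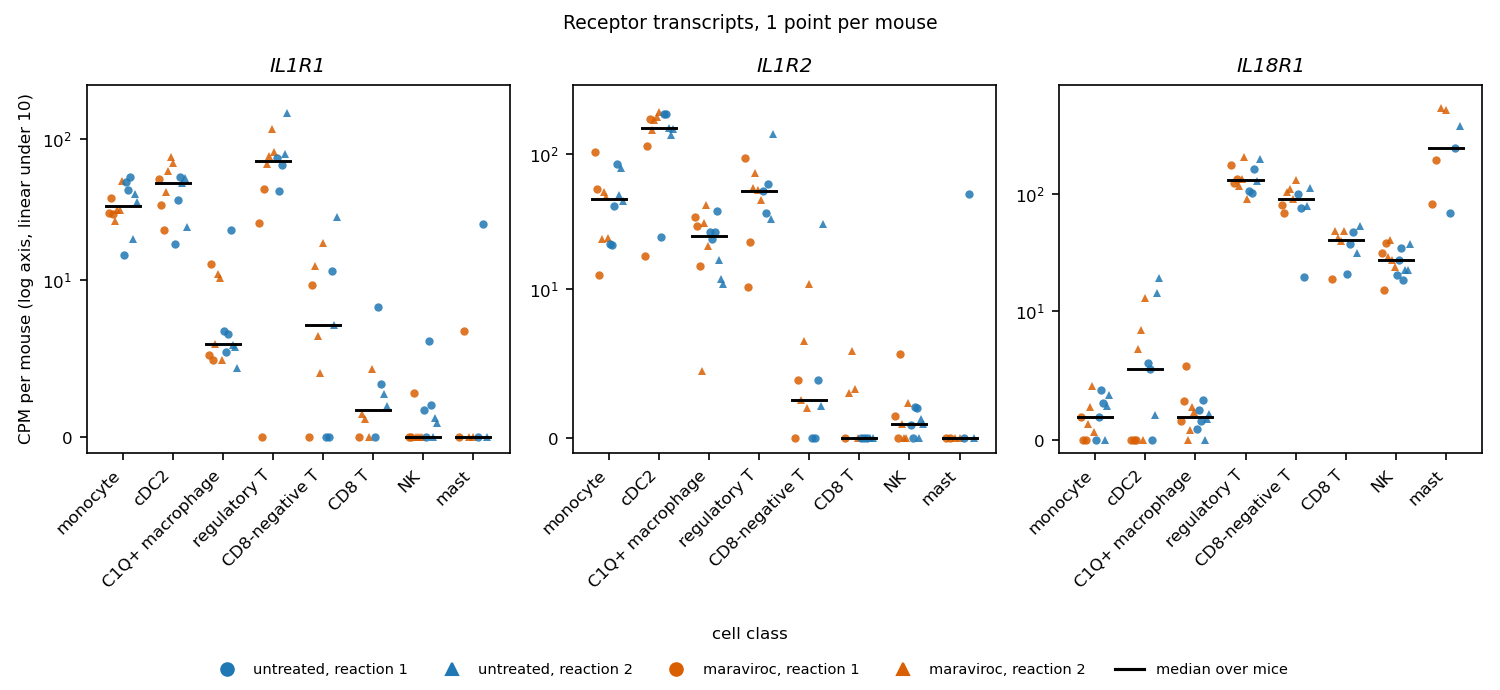
Levels of IL1R1, IL1R2 and IL18R1 in 8 classes, 1 point per mouse in CPM on an axis that is linear under 10 and logarithmic above, with bars for medians, color for treatment and marker shape for reaction. IL1R1 and IL1R2 were high in regulatory T cells and cDC2 and near 0 in NK cells, whereas IL18R1 was high in mast cells and regulatory T cells and near 0 in monocytes.

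IL18, unlike IL1B, had its lowest median in monocytes among the myeloid classes that could be tested. It ranged from 12.02 to 24.0 CPM in monocytes (median 17.6) and from 31.9 to 76.98 in C1Q+ macrophages (median 55.1), so that the 2 classes did not overlap. Of all genes, 28.5% were called lower in monocytes than in C1Q+ macrophages, and how many had separate ranges was not counted. GLUT1+, MT1G+, CCL20+, LYVE1+ and CXCL10+ macrophages had medians between 39.6 and 45.2 CPM. No neighbors among the first 5 classes were called different (adjusted p from 0.21 to 0.88, exact sign-flip permutation test). Compared with C1Q+ macrophages, IL18 was 2.80-fold lower in monocytes (log2 fold change -1.49, SE 0.14, adjusted p = 3.3e-19, edgeR) and lower in cDC2 (-0.74, SE 0.17). Among cells placed in a class, C1Q+ macrophages held 34.1% and 33.9% of the IL18 UMIs of the 2 reactions. They were 19.4% and 13.5% of those cells, at median depths of 4329 and 12580.5 UMIs against 4658 and 10154 over all of them. Among lymphocytes, IL18 was at 2.81 to 14.3 CPM in NK cells (median 6.14) and at a median of 0.93 in T cells. NK cells exceeded T cells 4.62-fold (log2 fold change 2.21, SE 0.31, adjusted p = 2.5e-10, edgeR). The NK level was 21.2% of the myeloid level in reaction 1 and 14.9988% in reaction 2, above the 1.396% to 8.10% and 0.991% to 2.65% at which other myeloid transcripts stood in NK cells.

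IL18R1, the binding chain of the IL-18 receptor, was highest in mast cells, from 69.5 to 548 CPM over 7 mice (median 252), followed by regulatory T cells, from 91.7 to 210 CPM over 12 mice (median 132). These neighbors were not called different over the 6 mice that had both (adjusted p = 0.45, exact sign-flip permutation test). CD8-negative T cells (median 91.7 CPM) lay below regulatory T cells in 10 of 11 mice (adjusted p = 0.039, exact test) and above CD8 T cells (median 40.8) in 9 of 10 (adjusted p = 0.035, exact test). NK cells ranged from 14.99 to 40.8 CPM (median 27.3). Plasmacytoid dendritic cells stood at 39.4 to 104 CPM in 5 mice, and macrophages and monocytes had medians of 0 to 1.99. Across myeloid against T cell classes the difference was 38.0-fold (log2 fold change -5.25, SE 0.15, edgeR). IL18R1 in cDC2 was called above C1Q+ macrophages (1.598, SE 0.43), at a median of only 5.54 CPM, but the difference was -0.04 in reaction 1 alone.

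NLRP3, the inflammasome sensor, had its highest medians in monocytes and cDC2 among the classes that were ordered, as IL1B did. It ranged from 125 to 284 CPM in monocytes (median 186), from 67.3 to 264 in cDC2 (126) and from 31.3 to 197 in C1Q+ macrophages (52.3). Other myeloid cells, left out of the order, ranged from 60.4 to 204 CPM, with a median of 130, above that of cDC2. CXCL10+ macrophages had a median of 58.9 CPM but the widest range, from 11.4 to 620. Monocytes exceeded cDC2 in 9 of 13 mice (adjusted p = 0.035, exact sign-flip permutation test), and cDC2 exceeded CCL20+ macrophages in 12 of 12 (adjusted p = 0.0098, exact test). NLRP3 was 3.54-fold higher in monocytes (log2 fold change 1.83, SE 0.17, adjusted p = 1.8e-19, edgeR) and 2.64-fold higher in cDC2 (1.403, SE 0.19) than in C1Q+ macrophages. In CCL20+, CXCL10+, MT1G+, GLUT1+ and LYVE1+ macrophages it was not called different from C1Q+ macrophages, with log2 fold changes of 0.25, 0.46, 0.35, -0.46 and -0.46.

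CASP1, the protease, had medians between 68.2 and 133 CPM in all of these myeloid classes. Its median was 133 CPM in CXCL10+ macrophages (119 to 212), 101 in monocytes, 98.2 in cycling cells and 91.9 in C1Q+ macrophages. CXCL10+ macrophages exceeded monocytes in 14 of 14 mice (adjusted p = 0.0049, exact sign-flip permutation test), and the next neighbors were not called different. CXCL10+ macrophages were also 1.595-fold above C1Q+ macrophages (log2 fold change 0.67, SE 0.10, adjusted p = 6.4e-08, edgeR), and cDC2 slightly below (-0.28, SE 0.12), a call that was lost in reaction 2 alone. T cells (median 57.4 CPM) and NK cells (46.9) carried it too, and the myeloid classes were 1.96-fold above T cells.

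Regulatory T cells against other T cells had 7 of the 10 genes higher and 1 lower, where 14.7% and 13.9% of all genes were higher and lower. IL1R1 was 16.4-fold higher (log2 fold change 4.04, SE 0.24, adjusted p = 4.7e-35, edgeR) and IL1R2 17.6-fold higher (4.14, SE 0.41, adjusted p = 4.2e-17, edgeR). IL18R1 was 2.48-fold higher (1.31, SE 0.15). These 3 calls held in each reaction alone. IL1A, IL1RN, IL1RAP and CASP1 were also called higher, by 0.53 to 2.01, and NLRP3 lower (-3.31, SE 0.68), but none of these 5 was called in reaction 1 alone, which held 203 regulatory T cells against 706 in reaction 2. IL1RN in regulatory T cells had a median of 25.9 CPM, and NLRP3 a median of 0. IL1B (1.16, SE 0.50) and IL18 (-1.16, SE 0.59) were not called.

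NK cells against T cells had 1 gene higher, IL18, and 5 lower, where 23.1% and 16.6% of all genes were higher and lower. IL1R1 was 10.1-fold lower (log2 fold change -3.33, SE 0.47, adjusted p = 5.3e-10, edgeR) and IL18R1 2.84-fold lower (-1.51, SE 0.16). IL1R2 (-2.44, SE 0.75), IL1A (-2.02, SE 0.76) and IL1RAP (-0.87, SE 0.19) were lower as well, and were not called in reaction 1 alone, nor IL1A in reaction 2 alone. CASP1, IL1B, IL1RN and NLRP3 were not called, with -0.19 to 0.28. The T side here was the mean of regulatory, CD8-negative and CD8 T cells in equal weight. NK cells were not fitted against CD8 T cells alone. Medians in CD8 T and NK cells were 1.74 and 0 CPM for IL1R1 and 0 and 0.94 for IL1R2. For IL18R1 they were 40.8 and 27.3, not called different (adjusted p = 0.16, exact sign-flip permutation test). IL18RAP, the signaling partner of IL18R1, went the other way and was higher in NK cells (1.24, SE 0.18), at a median of 34.2 CPM against 17.2 in T cells.

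Mast cells came from the 7 mice that had at least 10, and the T cell classes of the same fit from 10 to 12 mice. Against T cells, mast cells had 5 of the 10 genes higher and none lower, where 17.4% of all genes were higher and 19.8% lower. Mast cells of reaction 1 carried C1QA, C1QB and C1QC at 24.8% to 28.7% of the myeloid level and SPP1, a macrophage transcript, at 3156 CPM, whereas in reaction 2 these stood at 0% to 3.64% and at 208 CPM. In reaction 2, IL18R1 stood at 512 CPM in mast cells, IL1RAP at 146 and IL18 at 42.2. The calls for IL18R1 (log2 fold change 2.07, SE 0.22), IL1RAP (1.92, SE 0.33) and IL18 (5.07, SE 0.50) held in each reaction alone. IL1B, called higher overall (2.34, SE 0.84), stood at 90.1 CPM in reaction 1 and at 2.81 CPM, 1 UMI, in reaction 2, where the difference was -1.33. NLRP3 was at 26.7 and 42.2 CPM and was not called in reaction 1 alone. IL1RN (1.37, SE 0.59), IL1A (0.14, SE 1.25), CASP1 (-0.45, SE 0.32), IL1R2 (-0.77, SE 1.93) and IL1R1 (-1.41, SE 1.09) were not called. The part of myeloid RNA in the mast cell values of reaction 1 was not tested.

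Of a wider list of 33 genes of these pathways, 25 passed the filter on low counts, and the cytokines IL33, IL36A, IL36B, IL36G, IL36RN, IL37 and IL1F10 had at most 13 UMIs each. In monocytes against C1Q+ macrophages 14 of the 25 were higher and 3 lower, against 24.3% and 28.5% of all genes. Those of at least 2-fold were IRAK3 (log2 fold change 1.27, SE 0.12), a kinase-like inhibitor of the pathway, IRAK2 (1.26, SE 0.15), NLRC4 (1.15, SE 0.13), which encodes an inflammasome protein, and the adaptor MYD88 (1.01, SE 0.10). The inflammatory caspase gene CASP5 was lower (-1.08, SE 0.17). In cDC2, 8 were higher and 4 lower, against 20.1% and 24.1% of all genes. MYD88 was higher there (1.24, SE 0.12), and CASP5 (-1.56, SE 0.24) and NAIP (-1.36, SE 0.12), which encodes a sensor for NLRC4, were lower.

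In CXCL10+ macrophages 11 of the 25 were higher and 1 lower, against 7.70% and 6.53% of all genes. P2RX7, the ATP-gated channel (1.52, SE 0.21), and AIM2, a DNA sensor (1.45, SE 0.27), were past 2-fold. GLUT1+ macrophages had 5 higher and 5 lower, against 14.5% and 16.7% of all genes. Among these, IL18BP, the soluble IL-18 inhibitor, was higher (1.02, SE 0.24), and NAIP (-1.14, SE 0.15) and CASP5 (-1.16, SE 0.31) were lower. CCL20+ macrophages had 2 higher and 2 lower, against 5.05% and 3.23% of all genes. LYVE1+ macrophages had 2 and 4, against 6.75% and 6.80%, and MT1G+ macrophages 1 and 1, against 3.55% and 5.95%. None of these was 2-fold. Regulatory T cells had 8 higher and none lower, against 14.7% and 13.9% of all genes. The higher ones were led by IL1RL1, the IL-33 receptor (1.76, SE 0.35), AIM2 (1.45, SE 0.23) and CARD16, a decoy of caspase-1 (1.10, SE 0.10). NK cells had 4 higher and 7 lower, against 23.1% and 16.6% of all genes. IL1RL1 (-3.61, SE 0.50) and AIM2 (-2.99, SE 0.31) were lower. Mast cells had 6 higher and 6 lower, against 17.4% and 19.8% of all genes. IL1RL1 was at 83.2 to 242 CPM there (median 151), a difference of 4.65 from T cells (SE 0.42). The others of at least 2-fold upward were NLRC4 (2.63), IRAK2 (2.39), IRAK3 (1.61) and NAIP (1.42). Lower were NLRP1, another sensor (-2.79), IL18RAP (-1.99), NEK7, which binds NLRP3 (-1.60), CARD8 (-1.50) and CARD16 (-1.07). The myeloid classes against T cells had 15 higher and 10 lower, against 39.4% and 43.0% of all genes, with 12 at least 2-fold higher. These were MEFV, which encodes pyrin (5.22), NLRC4 (5.08), CASP5 (4.88), IRAK3 (4.33), NAIP (3.92), IL18BP (3.12), IRAK2 (2.33), P2RX7 (2.18), NINJ1 (1.84), IRAK1 (1.23), the adaptor PYCARD (1.09) and MYD88 (1.06). IL18RAP (-4.76) and IL1RL1 (-4.58) were at least 2-fold lower.

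Across 17 classes and 12631 genes, the genes whose mean log2 levels were most like those of IL1B were LILRB3, ADAMTSL4 and SERPINA1 (Pearson r from 0.975 to 0.977). For NLRP3 they were ANPEP, SGMS2 and CD300LF (0.948 to 0.955), for IL1RN STEAP3, PPT1 and PDXK (0.963 to 0.973) and for IL18 ICAM1, RAB13 and LRMDA (0.970 to 0.980). The nearest genes to IL1R2 were IL1RL2, LINC00884 and IL1R1 (0.891 to 0.905), and to IL1R1 they were PICALM, IL1R2 and ACOT9 (0.876 to 0.892). IL18R1 was most like SUB1, ZBTB8OS and SOCS1 (0.940 to 0.951), and CASP1 most like MLKL, SGTB and TRAPPC5 (0.917 to 0.947). For IL1RAP the nearest were TLR2, AC112496.1 and PPARD (0.942 to 0.948), and for IL1A AC112496.1, LIMK2 and CAPZA2 (0.890 to 0.900). These coefficients describe classes that share mice and libraries, and carry no test.

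The second question was whether maraviroc changed these transcripts. With the reaction as a block, none of the 10 genes was called in any of 6 cell groups by edgeR. Background calls at an adjusted p under 0.05 were 0% of 12755 genes in all myeloid cells, 0% of 8597 in monocytes, 0% of 9452 in C1Q+ macrophages, 0% of 5920 in cDC2, 0.00975% of 10259 in T cells and 0% of 8364 in NK cells. DESeq2 called none of the 10 either. Of those that passed the filter, 10, 9, 7, 8, 8 and 4 could be tested. At an unadjusted p under 0.05 stood IL18 in C1Q+ macrophages and IL1RN in NK cells, where 3.81% and 4.07% of all genes were, as were 3.36% in all myeloid cells, 3.82% in monocytes, 3.26% in cDC2 and 3.05% in T cells. IL18 in C1Q+ macrophages lay between 48.4 and 76.98 CPM in untreated and between 31.9 and 60.4 CPM in maraviroc mice, so that the groups overlapped (log2 fold change -0.38, SE 0.11, adjusted p = 0.9999, edgeR). IL1RN in NK cells lay between 8.21 and 36.7 CPM in untreated and between 11.5 and 23.0 CPM in maraviroc mice (-0.60, SE 0.26, adjusted p = 0.99999, edgeR).

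The difference in IL1B had opposite signs in the 2 reactions. This pattern was already known for all myeloid cells from earlier re-analysis of these data, and was followed here by class. The paper that reported the data described IL1B as increased with maraviroc in tumor-infiltrating myeloid cells, and its text gave no values by reaction. In monocytes of reaction 1 the 4 untreated mice stood at 1117, 1196, 1428 and 1668 CPM and the 3 maraviroc mice at 585, 639 and 671 CPM. All untreated mice were thus above all maraviroc mice. In this fit 5.91% of all genes had an unadjusted p under 0.05, and how many were separated in this way was not counted. In reaction 2 the 3 untreated mice stood at 479, 810 and 845 CPM and the 4 maraviroc mice at 680, 968.5, 1060 and 1711 CPM, and the groups overlapped. The log2 fold change in reaction 1 alone was -1.13 (SE 0.14, adjusted p = 0.0037, edgeR), 1 of 4 genes called in monocytes there (0.0530% of 7544). Leaving out any of the 7 mice in turn gave -1.19 to -1.02, and the call was kept in 5 of 7 fits. It was lost without maraviroc replicate 1 (-1.08, adjusted p = 0.090, edgeR) and without maraviroc replicate 2 (-1.12, adjusted p = 0.052, edgeR). In reaction 2 alone the log2 fold change was 0.68 (SE 0.39) and not called, where 0.0104% of all genes were. Since IL1B was picked with its pattern known, the call in reaction 1 and its leave-out fits are no independent evidence.

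C1Q+ macrophages had lower levels and the same 2 directions. In reaction 1 the untreated mice stood at 195, 306, 499 and 1145 CPM and the maraviroc mice at 143, 184 and 234 CPM. In reaction 2 the untreated mice stood at 103, 128 and 224 CPM and the maraviroc mice at 181, 244, 296 and 430 CPM. The groups overlapped in both reactions. The log2 fold changes were -1.56 (SE 0.71) and 1.005 (SE 0.35), neither called, where 0.0209% and 0% of all genes were. Over all myeloid cells they were -1.40 (SE 0.30) and 0.85 (SE 0.32), with untreated mice at 549 to 1294 CPM and maraviroc mice at 292 to 381 CPM in reaction 1, and at 250 to 470 and 499 to 996 CPM in reaction 2. Here the groups did not overlap in either reaction, but how many of all genes did the same was not counted. In these 2 edgeR fits 11.01% and 6.11% of all genes had an unadjusted p under 0.05, and none was called. These sums pool classes with different IL1B levels, and the part of class makeup in the difference was not tested. The classes were drawn from the same mice and are not independent of each other.

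**Figure D5:**
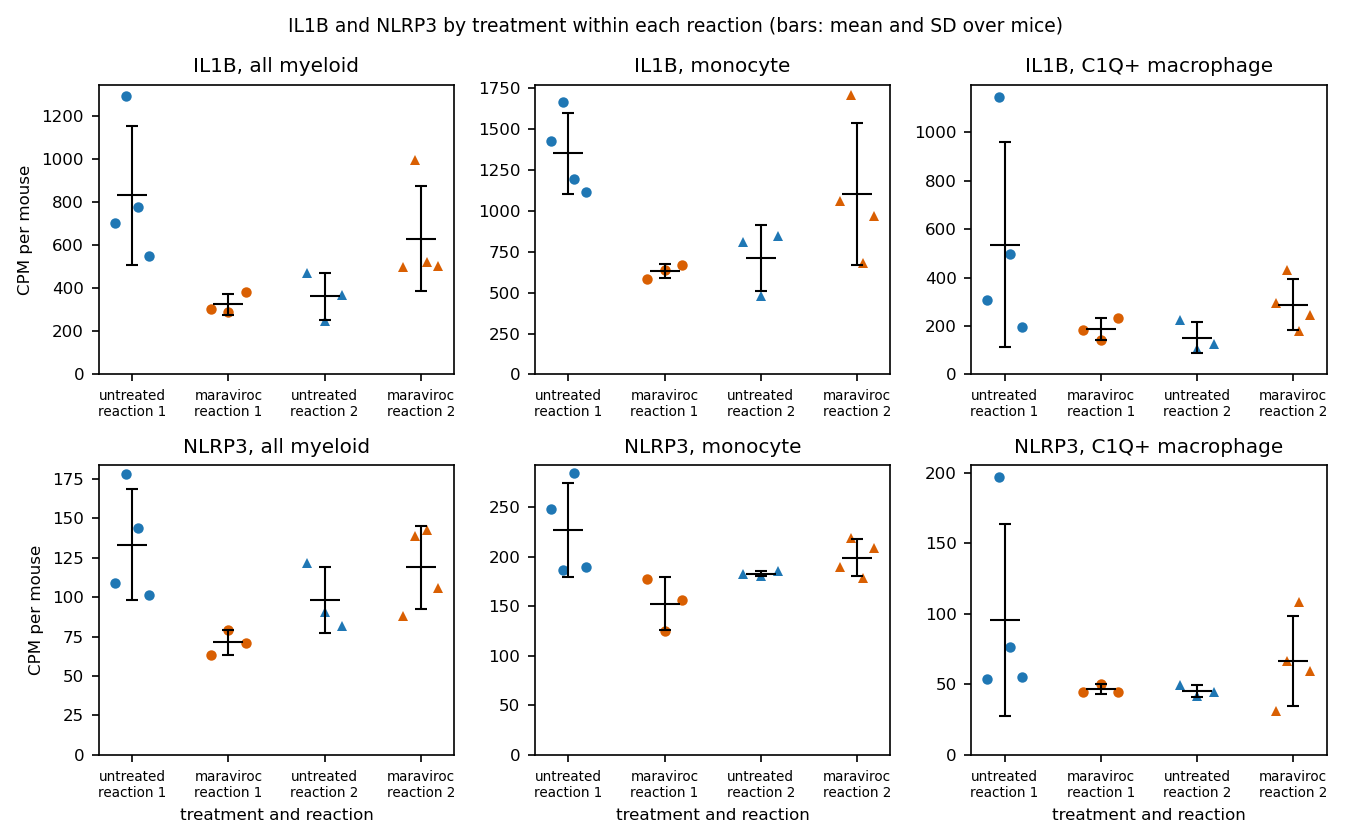
IL1B (top) and NLRP3 (bottom) in all myeloid cells, monocytes and C1Q+ macrophages by treatment and reaction, 1 point per mouse in CPM, with bars for mean and SD over the 3 or 4 mice. In monocytes of reaction 1 all untreated mice lie above all maraviroc mice for both genes. For IL1B these were 1117 to 1668 against 585 to 671 CPM. In reaction 2 the order of the means is opposite. The share of all genes separated as in reaction 1 was not counted.

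The difference of the effect between reactions was tested directly. In an exact permutation test with treatments permuted within reactions, the log2 effect of reaction 2 minus that of reaction 1 was 2.07 in all myeloid cells (p = 0.000816, the smallest that the 1225 regroupings can give), 1.68 in monocytes (p = 0.0049) and 2.16 in C1Q+ macrophages (p = 0.014), two-sided. Adjusted over the 3 groups these were 0.0024, 0.0073 and 0.014, and since this gene was picked with its pattern known they are no independent evidence. The interaction term of edgeR over all genes gave 2.26 (SE 0.48), 1.80 (SE 0.42) and 2.57 (SE 0.82), with adjusted p of 0.16, 0.26 and 0.48. Of all genes 0%, 0.0582% and 0.0212% passed the adjusted threshold for this term, and 13.8%, 7.56% and 8.89% had an unadjusted p under 0.05. Reaction, depth and set of mice changed together, so that these cannot be told apart.

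NLRP3 had the same signs as IL1B, without a call. In monocytes of reaction 1 the untreated mice stood at 187, 190, 248 and 284 CPM and the maraviroc mice at 125, 156 and 177 CPM. These did not overlap, but how many of all genes did the same was not counted. In reaction 2 the untreated mice stood at 181, 182 and 185 CPM and the maraviroc mice at 179, 189, 209 and 219 CPM. The log2 fold changes were -0.60 (SE 0.18, adjusted p = 0.60, edgeR) and 0.17 (SE 0.10, adjusted p = 0.97, edgeR), and the interaction was 0.76 (SE 0.21, adjusted p = 0.27, edgeR). IL1A in monocytes was at 14.7 to 35.6 CPM in untreated and 2.40 to 8.78 CPM in maraviroc mice of reaction 1, and at 4.69 to 38.3 and 5.75 to 86.5 CPM in reaction 2, and the reaction 1 difference was not called (-2.35, SE 0.51, adjusted p = 0.24, edgeR). IL1RN was at 261 to 590 and 270 to 529 CPM in reaction 1 and at 201 to 384 and 236 to 548 CPM in reaction 2, with log2 fold changes of -0.01 (SE 0.33) and 0.40 (SE 0.34).

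The ratio of IL1RN to IL1B was compared as well. Over both reactions the mean log2 ratio of maraviroc minus untreated mice was 0.31 in all myeloid cells (p = 0.38), 0.43 in monocytes (p = 0.25) and 0.11 in C1Q+ macrophages (p = 0.81), in a two-sided exact permutation test within reactions, with adjusted p of 0.58, 0.58 and 0.81. The 2 reactions again differed in sign, with 1.10 and -0.49 in all myeloid cells, 1.11 and -0.25 in monocytes and 0.86 and -0.64 in C1Q+ macrophages. In T and NK cells, IL18R1 differed by 0.11 (SE 0.20) and 0.09 (SE 0.22) with maraviroc, and IL1R1 and IL1R2 in T cells by -0.31 (SE 0.43) and -0.45 (SE 0.61), none called. The wider list of 33 genes had 24 tested in myeloid cells, 22 in monocytes, 23 in C1Q+ macrophages, 20 in cDC2, 21 in T cells and 18 in NK cells, and none was called with maraviroc.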

How the data were processed

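Human CD45+ cells were profiled by droplet 3′ RNA-seq with hashtag antibodies, 14 mice in 2 reactions. The deposited UMI counts were made by the authors with Cell Ranger 9.0.1 on GRCh38, and the submitters' notes also name Seurat 5.1.0. The GEO organism label names the mouse host, whereas the genes are human. Mice and treatments were taken from the hashtag names in the feature lists. Here barcodes with more than 600 and up to 6000 genes and under 12.5% mitochondrial UMIs were kept, hashtags were called with HTODemux (Seurat 5.3.0, quantile 0.99), and doublets and negatives were left out. No further doublet caller was run, so 2 cells of 1 mouse can share a droplet. How many such droplets remained was not estimated, and reaction 1 had the larger share of called doublets. Classes were gated by marker UMIs, with thresholds set after marker counts, but not the 10 genes, had been seen. Counts were summed per mouse and class with at least 10 cells. edgeR 4.0.16 tested these sums in R 4.3.3, with DESeq2 1.42.0 as an alternative, and SE is the log2 fold change over the root of the F statistic. CPM are UMIs of a gene per 1e6 UMIs of the same sum. Neighboring classes were compared on log2(CPM + 10). Their order was set by medians over the same mice, so these tests are no independent evidence for the order. The scripts were tested on simulated data. The 10 genes and the lists were chosen with earlier results of these data known. The rule for named genes was all 10 genes, list genes where called and at least 2-fold, and the 3 most similar genes by correlation. Values of the 10 that were not called are in part given as ranges. Intervals and shares cover counting error only. No sequence was printed, since no human reference was used here.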

Additional observations from a re-analysis of the deposited data

Results flagged for a closer look

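Dixon's test at the 95% level was run within treatment groups of 7 mice. The highest or lowest mouse stood apart in 9 of 60 groups of gene, cell group and treatment. All 9 were the highest mouse, and the cell groups overlap, so these are not 9 separate events. A chance rate of about 1 in 20 holds for normal values of 1 population. CPM of both reactions were pooled here, so the 9 of 60 cannot be set directly against that rate. Maraviroc replicate 5 was highest for IL1B in all myeloid cells (996 CPM, group median 499) and in monocytes (1711, median 680), and for IL1A in the same cells (35.4 CPM, median 8.59, and 86.5, median 8.78). Untreated replicate 2 was highest for IL1A in all myeloid cells (50.9 CPM, median 15.3), and in C1Q+ macrophages for IL1B (1145, median 224) and NLRP3 (197, median 54.0). Untreated replicate 4 was highest for IL1R1 in C1Q+ macrophages (22.6 CPM, median 5.91), and maraviroc replicate 3 for IL18R1 in all myeloid cells (5.21 CPM, median 2.23).

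The effect of maraviroc on IL1B differed between the reactions by 2.07 (log2, reaction 2 minus reaction 1) in all myeloid cells, 1.68 in monocytes and 2.16 in C1Q+ macrophages, each past 0.05 in the exact permutation test within reactions. IL1B was picked with this pattern known, so these values are no independent evidence. The interaction term of edgeR, adjusted over all genes, did not call IL1B in any of these cell groups. The cause was not tested.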

How the results depend on the processing

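Of 57 calls of the 10 genes between classes, 36 held under every alternative. All 57 held with DESeq2 size factors, DESeq2 and no filter on low counts, 56 each with thresholds raised by 1 UMI and with more than 1000 genes per cell, 39 in reaction 1 alone and 52 in reaction 2 alone. In reaction 1 alone, the number of called genes was 1 for CCL20+, 1 for GLUT1+, 1 for LYVE1+ and 0 for MT1G+ macrophages, 3 for NK cells and 3 for regulatory T cells. Why calls were lost was not tested. Calls over all genes fell in reaction 1 alone too. For CCL20+ macrophages 252 of 9621 were higher and 90 lower, against 560 and 358 of 11085 in the main fit. For GLUT1+ macrophages these were 1113 and 951 against 1612 and 1849, and for LYVE1+ macrophages 309 and 230 against 748 and 754. For MT1G+ macrophages they were 47 and 37 against 393 and 660. NK cells had 1416 and 732 against 2563 and 1838, and regulatory T cells 675 and 556 against 1627 and 1543. Without the filter, 5 of the 10 genes were called for GLUT1+ and 4 for LYVE1+ macrophages. Of 29473 genes, 1844 and 784 were then higher and 2106 and 991 lower. For MT1G+ macrophages 2 of the 10 were called in reaction 2 alone and 0 with raised thresholds. Of all genes, 335 were higher and 380 lower in reaction 2 alone, and 436 and 561 with raised thresholds. Opposite signs were seen for IL18R1 in cDC2 (-0.041, reaction 1 alone) and IL1B in mast cells (-1.33, reaction 2 alone). With maraviroc, 1 gene was called in monocytes of reaction 1 alone, IL1B, which was picked with its pattern known. In reaction 2 alone IL1B was 0.85 in all myeloid cells, 0.68 in monocytes and 1.005 in C1Q+ macrophages. Leaving out each mouse in turn moved IL1B in C1Q+ macrophages over both reactions from -0.60 to 0.13, with the sign changed without maraviroc replicate 2 or untreated replicate 2. The log2 ratio of IL1RN to IL1B with maraviroc ranged over left-out mice from 0.24 to 0.67 in monocytes, where p fell to 0.046 without untreated replicate 6 alone, and from -0.11 to 0.32 in C1Q+ macrophages, below 0 without maraviroc replicate 6, untreated replicate 2 or untreated replicate 5. It was -0.048 there as a mean over cells. In the permutation test, the difference of the IL1B effect between reactions kept its sign and its side of 0.05 under every alternative. Since the pattern was known beforehand, this is no independent evidence. No paired analysis was possible because no label ties a maraviroc mouse to an untreated mouse. Class comparisons used the mouse as a block in the fit and as the pair in the sign-flip tests.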
